A study of Mus musculus with 16 samples.

Results

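Ankrd1 and 7 further genes of the Hippo pathway were followed in kidneys of mice without aquaporin-11. The 8 genes are the YAP targets Ankrd1, Ctgf (current symbol Ccn2), Cyr61 (Ccn1), Amotl2, Axl and Lats2, the coactivator gene Yap1 and the transcription factor gene Tead1. They were taken by name, with all 20 probe sets that the array annotation gives to one of them alone, out of 45037 probe sets and 18194 named genes. The genes were picked with the difference between knockout and wild type in view, so their values in that comparison are a description and carry no test.

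Kidneys of 9 Aqp11-/- pups (5 male and 4 female) and of 7 Aqp11+/+ littermates (3 male and 4 female) were each hybridised to 1 Affymetrix Mouse Genome 430 2.0 array. All pups were 7 days old. Heterozygous parents of 129/SvEvBrd origin had been crossed back to C57/BL6, and the labels give C57BL/6J as the strain of both groups. The deletion was present in the whole animal, and the RNA came from whole kidney, so fewer cells of a type and less RNA per cell cannot be told apart. Values are log2 of the quantile-normalised signal, with a floor of 2.78. A probe set was tested if it lay above the 40th percentile of its array on at least 7 of the 16 arrays, and changes of other genes were called with limma at a Benjamini-Hochberg adjusted p of 0.05 over 27399 probe sets.

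The Hippo pathway is a kinase cascade that restrains growth: the kinases MST1 and MST2 activate LATS1 and LATS2, which phosphorylate the coactivators YAP and TAZ and keep them out of the nucleus. Unphosphorylated YAP enters the nucleus, binds TEAD transcription factors and raises target genes such as Ctgf, Cyr61 and Ankrd1. YAP itself is controlled mainly through its phosphorylation and location, which an mRNA array does not measure. In kidney the pathway shapes nephron formation and YAP activity rises after tubular injury.

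TEAD proteins recognise the letters CATTCC, or GGAATG on the other strand. RefSeq promoter windows (GRCm38.p6, 250 bases before to 50 after the annotated start) were given for 6 of the 8 genes, in 7 windows, and not for Ctgf and Tead1. At least 1 match lay in 6 of the 7 windows, covering all 6 genes, against 14.7% of 32851 windows of the same length. The letters TGANTCA, bound by AP-1, had no match in the 7 windows, against 7.81% of all windows, and the CArG box bound by SRF had none, against 1.63%. Both strands were searched, and a match is a description of the letters, not a sign of binding. The windows of Ankrd1, Cyr61 and Amotl2 are shown as examples of target genes with a match before the start. The first pair had mRNA higher in KO kidneys, and Amotl2 had a lower mean that was not called. Axl, also higher in KO kidneys, had a match 233 bases before the start and is not shown. The matches are in capitals.
Ankrd1, chr19:36119795-36120094, minus strand: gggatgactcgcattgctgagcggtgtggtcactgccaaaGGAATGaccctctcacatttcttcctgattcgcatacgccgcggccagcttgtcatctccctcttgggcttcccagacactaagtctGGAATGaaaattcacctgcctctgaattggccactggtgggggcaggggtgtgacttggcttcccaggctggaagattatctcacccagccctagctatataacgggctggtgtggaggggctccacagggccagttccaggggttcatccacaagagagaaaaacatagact
Cyr61, chr3:145649936-145650235, minus strand: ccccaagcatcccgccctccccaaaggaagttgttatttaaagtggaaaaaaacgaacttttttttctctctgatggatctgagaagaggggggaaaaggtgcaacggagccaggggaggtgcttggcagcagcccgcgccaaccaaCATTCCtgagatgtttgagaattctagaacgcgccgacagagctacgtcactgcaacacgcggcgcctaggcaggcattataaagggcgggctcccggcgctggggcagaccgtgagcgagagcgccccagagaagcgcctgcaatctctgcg
Amotl2, chr9:102717554-102717853, plus strand: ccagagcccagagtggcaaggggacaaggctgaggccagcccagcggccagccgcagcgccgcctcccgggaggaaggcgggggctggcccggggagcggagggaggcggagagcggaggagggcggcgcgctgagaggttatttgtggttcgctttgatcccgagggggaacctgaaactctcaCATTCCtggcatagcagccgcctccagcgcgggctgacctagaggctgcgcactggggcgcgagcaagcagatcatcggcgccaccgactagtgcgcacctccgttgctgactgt
The Ankrd1 window held 2 matches, 210 and 123 bases before the start. The Cyr61 window held 1 match, 103 bases before the start, and the Amotl2 window held 1, 65 bases before it.

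The labels, the knockout and the state of the tissue were checked first. Aqp11 (1429254_at) averaged 2.94 ± 0.33 in KO kidneys, where 7 of 9 arrays were at the floor, and 7.87 ± 0.16 in WT kidneys (SD, n = 9 and 7). Its dimmer probe set 1447606_x_at averaged 3.58 ± 0.99 in KO kidneys, with 5 of 9 at the floor, and 5.33 ± 0.50 in WT kidneys, and the groups overlapped. A further probe set, 1455846_at, was too dim to be tested, with 2.83 in KO and 4.11 in WT kidneys. The 2% trimmed mean signal before normalisation spanned 124 to 236 on KO arrays and 111 to 211 on WT arrays. The arrays were cut at the largest gap in this signal on a log2 scale, between 150 (WT 4-1) and 172 (WT 3-1), and signals varied on both sides. This gave a brighter set of 4 KO and 4 WT and a dimmer set of 5 KO and 3 WT. All arrays with a first sample number of 4 or 5, and KO 2-4 and KO 3-4, fell in the dimmer set. Many of the values that follow are also given within each set. The injury genes Havcr1, Lcn2, Timp1, Krt20 and Sprr2f were all called higher in KO kidneys. Of all probe sets tested, 11.7% were called (6.19% higher and 5.46% lower), and of 12511 genes, each by its brightest probe set, 15.7% (8.43% higher and 7.29% lower).

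Among the targets, 4 genes lay higher in KO kidneys (Ankrd1, Cyr61, Ctgf and Axl), while Amotl2 had a lower mean (difference −0.28) and was not called. Lats2 differed by −0.16 to 0.67 over its probe sets, none of them called. Yap1 and Tead1 differed little at their tested probe sets. By the same limma threshold 4 of the 8 genes and 8 of the 16 tested probe sets were called higher, beside 8.43% of all genes and 6.19% of all probe sets. Because the genes were chosen on this comparison, nothing is read from these counts. The other 4 of the 20 probe sets were too dim to be tested. Of the 12511 genes ordered by the difference of KO minus WT from the highest down, Ankrd1 stood at place 8, Cyr61 at 189, Ctgf at 284 and Axl at 962.

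**Figure D1:**
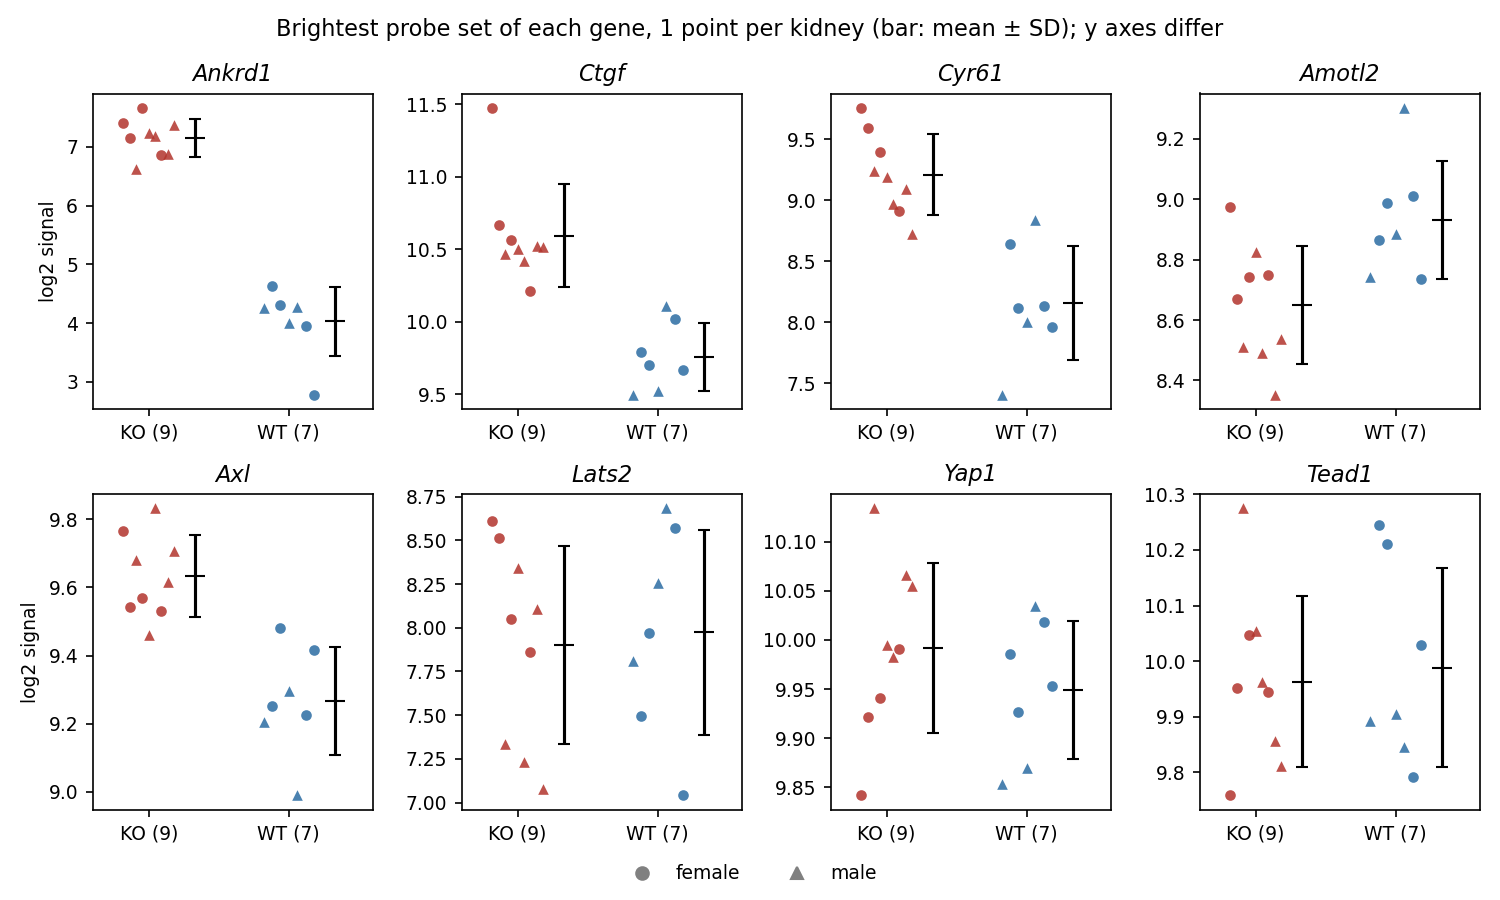
Log2 signal of the brightest probe set of each of the 8 genes (y axis, scale differing between panels) in each KO and WT kidney. Circles are females, triangles are males, and bars give the mean ± SD. Ankrd1 and Ctgf show no overlap between KO and WT kidneys, and Cyr61 and Axl each have 1 KO kidney inside the WT range.

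Ankrd1 encodes cardiac ankyrin repeat protein, a stretch-responsive protein of muscle that is also induced by YAP in other cells. Probe set 1420991_at had a lowest, median and highest value of 6.62, 7.18 and 7.66 in KO kidneys, against 2.78, 4.26 and 4.63 in WT kidneys. The difference was 3.12 ± 0.21 (log2, SE), or 8.70-fold, with no overlap between the groups, as at 3.75% of all tested probe sets (2.06% with all KO above all WT). At this probe set all 9 KO kidneys lay close together (SD 0.32), and the lowest WT kidney, 5-1, was at the floor. Without that kidney the difference was 2.92. The second probe set, 1420992_at, gave 5.63, 6.56 and 7.38 in KO kidneys, against 2.80, 3.95 and 4.71 in WT kidneys, and a difference of 2.79 ± 0.29, or 6.90-fold. Both probe sets passed the filter through the KO arrays: 9 KO arrays and 1 WT array lay above the 40th percentile. In WT kidneys Ankrd1 was therefore near the dim end of the array. The floor was reached only in WT kidney 5-1 at 1420991_at, so it understates the fold change there and not at 1420992_at. The difference at 1420991_at was 3.06 among brighter and 3.31 among dimmer arrays, and at 1420992_at it was 2.97 and 2.84. KO kidneys were more spread at 1420992_at (SD 0.59), with means of 7.17 on brighter and 6.20 on dimmer arrays.

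Ankrd1 is a muscle gene, and a chosen list of striated muscle genes was set beside it. Of 16 such genes, 15 were too dim to be tested, and 8 of the 16 had a median at the floor. Myh8, a perinatal myosin heavy chain, was at the floor in 8 KO and 6 WT kidneys. Their summed signal was 141 to 320 in KO kidneys and 104 to 205 in WT kidneys. Acta1, skeletal muscle actin and the one gene bright enough to be tested, differed by 0.65 and was not called (limma adjusted p = 0.184). Ankrd2 and Ankrd23 encode the other muscle ankyrin repeat proteins. Ankrd2 was too dim to be tested, with a mean of 3.10 in KO and 3.34 in WT kidneys, and Ankrd23 differed by −0.12 (limma adjusted p = 0.825).

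Ctgf and Cyr61 encode secreted matricellular proteins of the CCN family and are the standard readouts of YAP. Ctgf (1416953_at) had a lowest, median and highest value of 10.21, 10.51 and 11.48 in KO kidneys, against 9.50, 9.70 and 10.11 in WT kidneys. It differed by 0.84 ± 0.13, or 1.79-fold, and its groups did not overlap. KO kidney 1-2 was far above the other KO kidneys, and without it the difference was 0.73. The difference was 1.17 among brighter arrays and 0.50 among dimmer arrays.

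Cyr61 is covered by 4 probe sets, which all lay higher in KO kidneys, by 0.91 to 1.05. The brightest, 1416039_x_at, had 8.72, 9.19 and 9.76 in KO kidneys, against 7.41, 8.12 and 8.84 in WT kidneys, a difference of 1.05 ± 0.17 or 2.07-fold. At this probe set 8 of the 9 KO kidneys lay above all WT kidneys, the exception being 5-2. The differences at 1438133_a_at, 1442340_x_at and 1457823_at were 0.98 ± 0.22, 1.00 ± 0.18 and 0.91 ± 0.22. An _x_at probe set contains probes that can match other transcripts, and over all arrays the sets without that suffix gave similar values. Among dimmer arrays those without it, 1438133_a_at and 1457823_at, differed by 0.35 and 0.30, against 0.68 and 0.83 for the _x_at sets. Among brighter arrays they differed by 1.65 and 1.48, against 1.44 and 1.21. At them 6 and 4 of the 9 KO kidneys lay above all WT kidneys, against 8 at each _x_at set. The Cyr61 differences were larger among brighter arrays, at 1.21 to 1.65, than among dimmer arrays, at 0.30 to 0.83, and whether array brightness sets the size was not tested. Of the other CCN family genes, Wisp1 was called higher in KO kidneys, by 1.51-fold (limma adjusted p = 3.08e-05). Nov differed by −0.17 and was not called (adjusted p = 0.630), and Wisp2 and Wisp3 were too dim to be tested.

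Axl encodes a receptor tyrosine kinase of the TAM family that clears dying cells and dampens inflammation. Probe set 1423586_at had 9.46, 9.61 and 9.83 in KO kidneys, against 8.99, 9.25 and 9.48 in WT kidneys. The difference was 0.37 ± 0.07, or 1.29-fold, and 8 of 9 KO kidneys lay above all WT kidneys. It was 0.28 among brighter and 0.46 among dimmer arrays. Axl's second probe set was at the floor in 6 KO and 7 WT kidneys. Of the ligands of AXL, Pros1 (protein S) was called higher, by 1.51-fold (limma adjusted p = 1.32e-05), and Gas6 lower, by 1.26-fold (adjusted p = 0.00323). The other TAM receptor genes, Mertk and Tyro3, differed by −0.23 and 0.38 and were not called (adjusted p = 0.0576 and 0.0768).

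Amotl2 encodes an angiomotin that holds YAP at cell junctions and is itself raised by YAP. Its probe set gave 8.35, 8.67 and 8.98 in KO kidneys, against 8.74, 8.88 and 9.30 in WT kidneys, a difference of −0.28 ± 0.09 that was not called. Its mean lay on the other side from Ankrd1, Ctgf and Cyr61, with 5 of 9 KO kidneys below all WT kidneys. The difference was −0.07 among brighter and −0.49 among dimmer arrays.

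Lats2, the kinase gene that YAP induces as negative feedback, has 6 probe sets that did not point one way. The brightest, 1439441_x_at, averaged 7.90 ± 0.57 in KO and 7.97 ± 0.59 in WT kidneys, and its difference turned with array brightness: 0.50 among brighter and −0.57 among dimmer arrays. Probe sets 1419678_at and 1437101_at differed by −0.08 ± 0.10 and −0.16 ± 0.11, the second by 0.07 among brighter and −0.40 among dimmer arrays. The dimmer set 1425420_s_at differed by 0.60 ± 0.29, with 0.06 among brighter and 1.21 among dimmer arrays. Probe set 1419679_at, untested, differed by 0.67, with 0.05 among brighter and 1.31 among dimmer arrays. The untested 1426156_at differed by −0.08, with −0.18 among brighter and 0.05 among dimmer arrays. A further probe set shared by Xpo4 and Lats2 differed by −0.03.

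Yap1 and Tead1, the coactivator and its DNA-binding partner, sat at almost the same level in both groups. Yap1 (1448363_at) averaged 9.99 ± 0.09 in KO and 9.95 ± 0.07 in WT kidneys, a difference of 0.04 ± 0.05, and its second probe set, 1416487_a_at, differed by −0.01, with −0.15 among brighter and 0.10 among dimmer arrays. Tead1 (1429556_at) averaged 9.96 ± 0.15 in KO and 9.99 ± 0.18 in WT kidneys, a difference of −0.03 ± 0.08, with −0.11 among brighter and 0.08 among dimmer arrays. Its other probe set was too dim to be tested, with 4.11 in KO and 3.92 in WT kidneys, and differed by 0.46 among brighter and −0.22 among dimmer arrays. Tead1 and Axl lie on chromosome 7, as does Aqp11, with 362 and 723 protein-coding genes between. Between Tead1 and Aqp11, 25 of 101 tested genes were called (24.8%), and between Axl and Aqp11, 62 of 351 (17.7%), against 15.7% of all genes. DNA of the donor strain around Aqp11 cannot be told apart from the genotype.

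**Figure D2:**
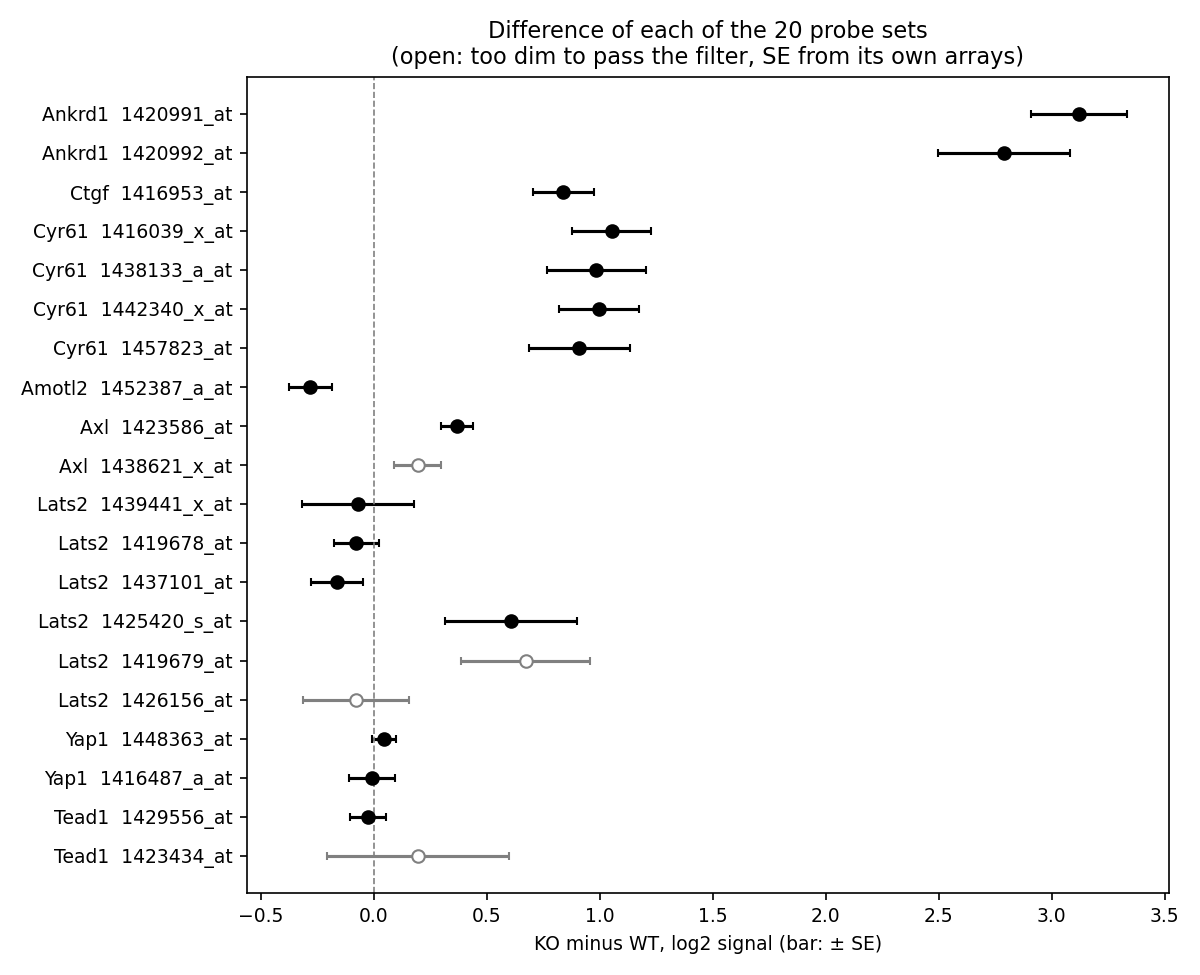
Difference of KO minus WT (x axis, log2 signal) for each of the 20 probe sets, with the standard error as a bar. Open points mark the 4 probe sets too dim to be tested. The Ankrd1, Ctgf, Cyr61 and Axl sets lie to the right of 0 and the Yap1 and Tead1 sets around it.

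The 9 KO kidneys did not hold one order across the targets, each taken at its brightest probe set. KO kidney 1-2 was highest for Ctgf and Cyr61, 3-2 was highest for Ankrd1 and 3-4 was highest for Axl. Kidney 2-4 was lowest for Ankrd1 and highest for Yap1. At the second probe sets the order differed: 1-2 was highest and 4-3 lowest for Ankrd1 (1420992_at), and 3-4 was highest for Yap1 (1416487_a_at). Over the 9 KO kidneys, 15 relations of Ankrd1 with other measures were examined, and none passed an exact two-sided permutation test after Benjamini-Hochberg adjustment. The nearest among the genes was Yap1, with Pearson r = −0.66 (exact permutation p = 0.0536, adjusted 0.611) and Spearman rho = −0.57 (p = 0.121), falling to r = −0.44 without the 2 kidneys farthest from the median of Ankrd1. Ctgf gave r = 0.41 (exact permutation p = 0.282) and rho = 0.57 (p = 0.121), and r = 0.62 without those 2. Havcr1, the kidney injury molecule gene, gave r = −0.04 (exact permutation p = 0.925) and rho = −0.13 (p = 0.744). Array brightness, as the log2 trimmed mean signal, gave r = 0.62 (exact permutation p = 0.0815, adjusted 0.611) and rho = 0.50 (p = 0.178). Among KO kidneys Ankrd1 (1420991_at) averaged 7.36 on brighter and 6.98 on dimmer arrays, and Yap1 (1448363_at) 9.92 and 10.05. Whether brightness underlies the relation of Ankrd1 with Yap1 was not tested. The brighter and dimmer KO arrays, 4 and 5 in number, are too few for a value within each.

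**Figure D3:**
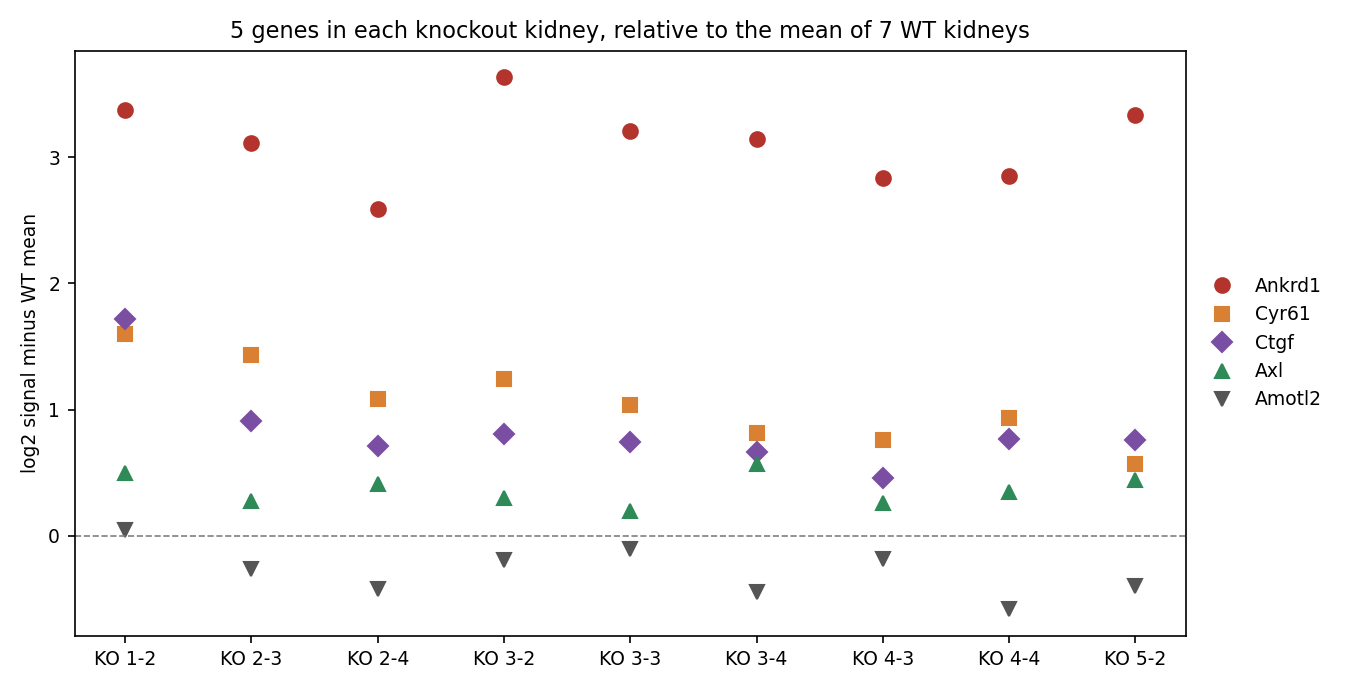
Log2 signal of 5 genes in each KO kidney minus the mean of the 7 WT kidneys (y axis), by kidney (x axis), with 0 marking the WT mean. Ankrd1 lies above the other genes in all 9 KO kidneys, and Amotl2 lies below 0 in all but 1-2.

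Sex was not used in choosing the genes and could be tested, but among KO kidneys it ran largely with array brightness. Of the brighter KO arrays (1-2, 2-3, 3-2 and 3-3) only 3-3 was male. Of the dimmer ones (2-4, 3-4, 4-3, 4-4 and 5-2) only 4-3 was female. Differences by sex therefore cannot be fully told apart from brightness, and this applies also to males alone and females alone below. No probe set of the 8 genes passed limma for a difference between the sexes. The smallest p was that of Cyr61 at 1438133_a_at, with a difference of male minus female of −0.41 ± 0.20 (limma adjusted p = 0.999), beside 21 of 27399 probe sets called in all, or 0.0766%. No probe set was called for a genotype difference that differs between the sexes (limma), and 2786, or 10.2%, had an unadjusted p under 0.05. Lats2 at 1439441_x_at was the nearest of the 8 genes, with an interaction of −1.12 ± 0.45 (limma adjusted p = 0.488). The Ankrd1 mean was 7.06 in KO males and 7.27 in KO females, against 4.18 in WT males and 3.92 in WT females. For Cyr61 it was 9.04 in KO males and 9.41 in KO females, against 8.08 in WT males and 8.21 in WT females.

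Further YAP and TAZ targets were taken from a list of genes other than the 8. This list and the pathway lists that follow were also chosen with earlier results of these data known. Their counts and adjusted p-values are therefore a description and not an independent test. Of 15 tested, 4 were called higher and 1 lower, with a median difference of 0.13, beside 0.00 for all genes. That is 33.3% called, against 15.7% of all genes (8.43% higher and 7.29% lower). F3, tissue factor, averaged 8.80 ± 0.47 in KO and 7.05 ± 0.13 in WT kidneys and was 3.36-fold higher (limma adjusted p = 2.42e-07). Myof, a membrane repair protein gene, was 1.55-fold higher (adjusted p = 4.58e-06), Nt5e, the enzyme that makes adenosine, 1.54-fold (0.00156) and Gadd45a, a stress response gene, 1.34-fold (0.00364). Nuak2, a kinase gene, was 1.58-fold lower (adjusted p = 0.00114). Igfbp3, the brightest of the list, differed by 0.20 and was not called (adjusted p = 0.360). All 9 KO kidneys lay above all 7 WT kidneys for F3, Myof and Gadd45a.

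The upstream parts of the pathway had shares of called genes near the 15.7% of all genes. Of 14 Hippo kinases and adaptors, 1 was called higher and 1 lower (14.3%), and the median difference was 0.02. Rassf1, a scaffold gene, was 1.27-fold higher and Wwc2, a KIBRA relative, 1.19-fold lower (limma adjusted p = 0.00706 and 0.00139). Of 10 YAP partners and inhibitors 1 was called (10%). Vgll3, a TEAD cofactor gene, was 2.26-fold higher (adjusted p = 0.000428), and Wwtr1, which encodes TAZ, differed by 0.07 and was not called (0.461). Of 12 polarity and atypical cadherin genes 2 were called (16.7%). Mpp5 and Pard6b, which build the apical polarity complexes, were lower, by 1.28-fold and 1.31-fold (adjusted p = 0.00318 and 0.0253), and Fat1 differed by 0.00. Of 20 targets of SRF and MRTF, factors that share many actin genes with YAP, 7 were called higher and none lower (35%, against 8.43% of all genes higher and 7.29% lower), with a median of 0.23. They were Tagln (1.65-fold, adjusted p = 2.11e-05), Tpm4 (1.21-fold, 0.00025), Vcl (1.20-fold, 0.00565), Acta2 (1.20-fold, 0.00637), Tpm1 (1.32-fold, 0.00904), Flna (1.22-fold, 0.0199) and Cnn1 (1.37-fold, 0.0435). Actb, the brightest, differed by 0.01. On the signals as deposited, without normalisation between arrays, 2 of the YAP targets (F3 and Myof) and 1 of the SRF targets (Tagln) were still called higher. Vgll3 kept its call there, and the calls of Nuak2, Rassf1, Wwc2, Mpp5, Pard6b, Wisp1, Pros1 and Gas6 were lost. Those of Rassf1 and Wwc2 were also lost in males alone, in females alone and among dimmer arrays, and that of Vgll3 among dimmer arrays. Nuak2, Mpp5 and Gas6 lost theirs in females alone and among brighter arrays. Gadd45a lost its call in males alone and among dimmer arrays, and Nt5e in males alone and among brighter arrays. Pard6b lost its call in either sex alone and in either brightness set. In females alone Acta2, Vcl, Tpm1, Tpm4 and Flna lost theirs, and all of these but Tpm4 did among brighter arrays. Among dimmer arrays Acta2, Vcl and Flna lost their calls too. Flna also lost its call in males alone, and Acta2 and Tpm1 did with median centring. Calls of F3, Myof and Tagln held in all 32 alternatives. The call of Pard6b was also lost without KO kidney 4-4, WT kidney 2-1 or WT kidney 2-2, that of Flna without WT kidney 1-1, and that of Cnn1 in 21 of 32 alternatives.

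**Figure D4:**
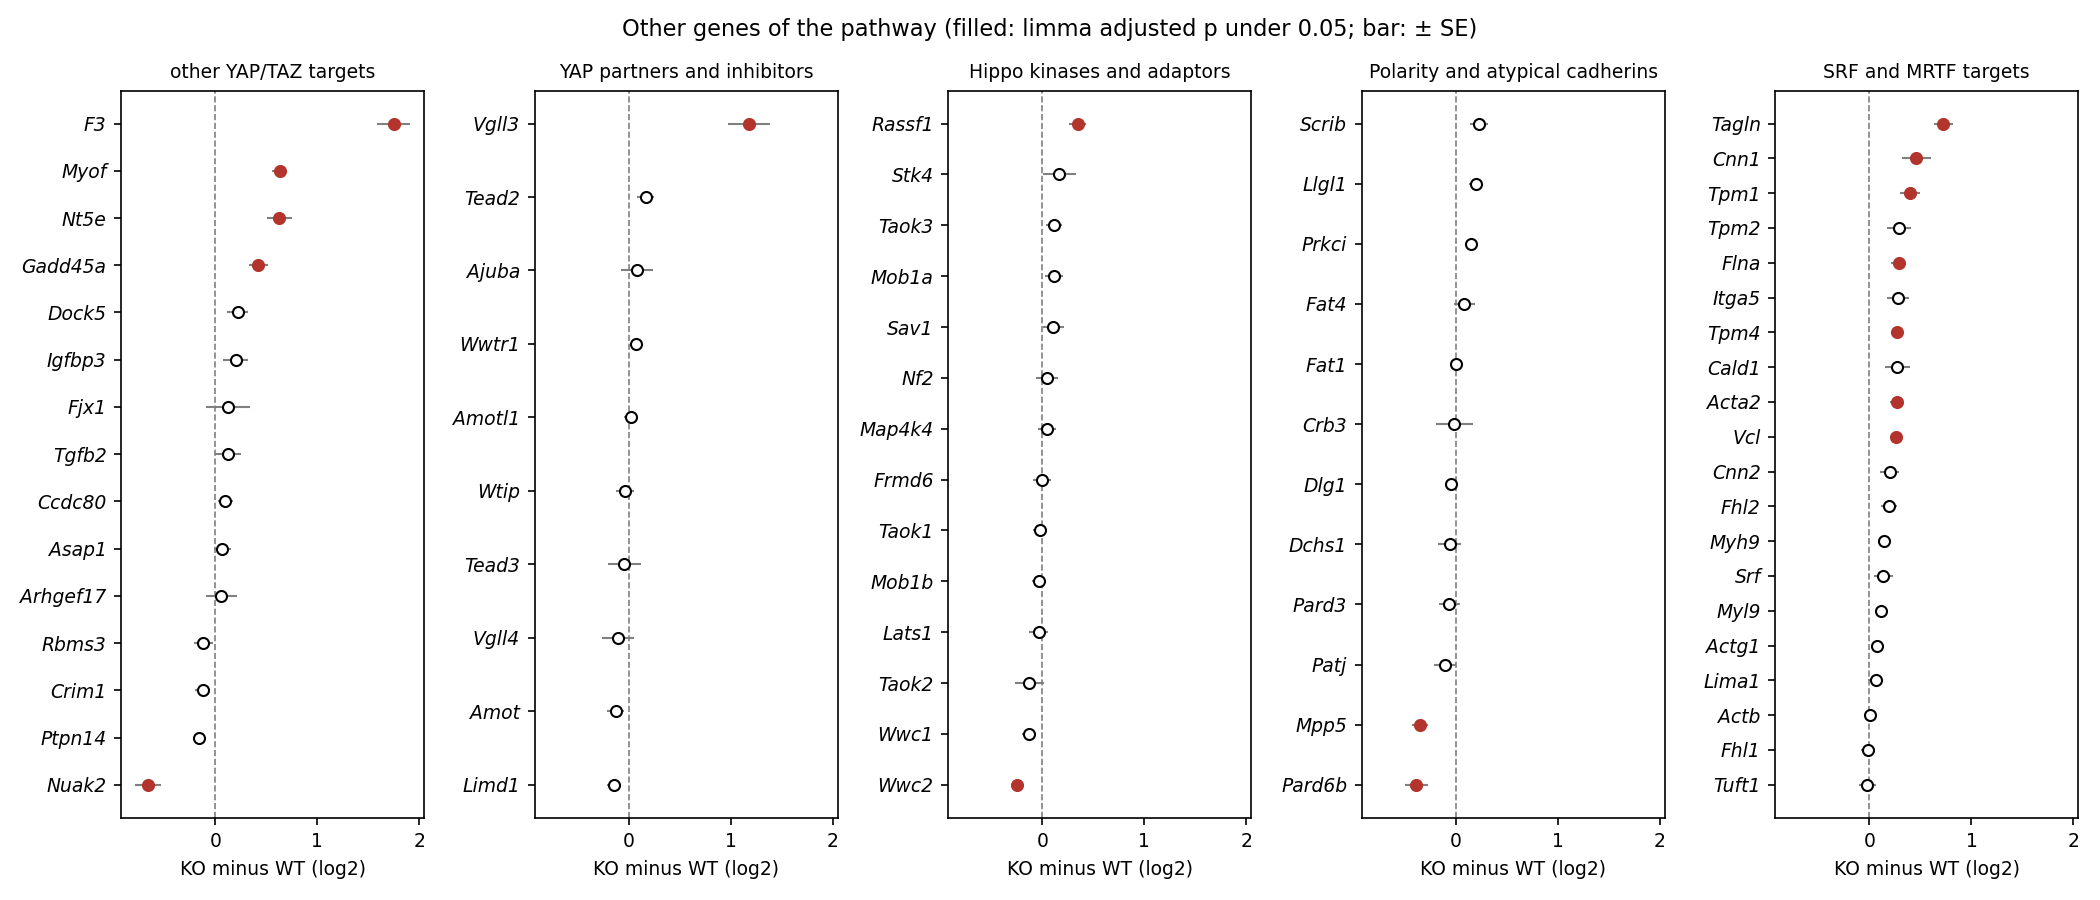
Difference of KO minus WT (x axis, log2) for the other tested genes of 5 pathway lists, with the standard error as a bar; filled points passed limma's adjusted p of 0.05. F3 and Vgll3 lie farthest to the right.

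Markers of cell types were set beside these results, with 8.43% of all genes called higher and 7.29% lower. The 10 macrophage markers were all called higher, and their summed signal was 4033 to 6964 in KO kidneys against 1553 to 3084 in WT kidneys. Of 9 fibroblast markers 4 were higher (summed signal 23704 to 25929 in KO, 20905 to 22758 in WT), and of 6 smooth muscle markers 3 were (7981 to 9906 in KO, 6090 to 7997 in WT); Acta2, Tagln and Cnn1 are also in the SRF list. Proximal tubule markers were lower in 5 of 6 (5883 to 10478 in KO, 13120 to 15124 in WT), endothelial markers in 3 of 6 (3437 to 4490 in KO, 4622 to 5641 in WT) and podocyte markers in 2 of 5 (2828 to 3431 in KO, 3130 to 3803 in WT). Of 3 nephron progenitor markers 1 was bright enough to be tested and was not called. Their part in the levels of the 8 genes was not tested.

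The genes whose deviations from their genotype mean most resembled those of Ankrd1 over the 16 arrays were Pcnx4 (r = 0.87), Pcmt1 (0.86), Zfp180 (0.85), Pon3 (0.84) and Crebl2 (0.82). None of them was called between KO and WT. The 99th percentile of r over 12511 genes was 0.659. Of the other 7 of the 8 genes, Amotl2 came nearest, with 0.40, then Lats2 with 0.36, Cyr61 with 0.29 and Ctgf with 0.26, while Tead1 (−0.04), Axl (−0.22) and Yap1 (−0.27) were below 0. Some genes of the pathway lists lay nearer, such as Ajuba with 0.72 and Mob1b with 0.65. WT kidney 5-1, at the floor for Ankrd1, lay farthest from its group mean. Over the 9 KO kidneys alone the 5 genes had r of 0.54 to 0.85 with Ankrd1. These values describe arrays that share their brightness and normalisation, and they carry no p.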

How the data were processed

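RNA of each kidney was labelled and hybridised individually, per the labels' protocols. The authors deposited linear signal intensity from GCOS 1.3 (version per the submitters' processing notes). Whether these signals had been scaled between arrays is not stated there. They were quantile normalised here, raised to a floor at the 20th percentile (6.88) and put on a log2 scale. Fold changes of genes with values at the floor can therefore be understated. Of 45101 probe sets, 64 controls were left out. The platform annotation lists 35877, of which 34945 name 1 gene and 932 several, and 9160 are unnamed here.

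With R 4.3.3, limma 3.58.1 (eBayes with its trend option, after lmFit) compared 9 KO with 7 WT arrays over 27399 probe sets, genes being represented by their brightest tested probe set. Sex was a second term and an interaction. The steps were tested on simulated data. The labels share a first number between groups without saying that it marks a litter. The correlation of deviations between KO and WT kidneys averaged 0.0485 over 13 same-numbered pairs and −0.012 over 50 others. These values do not settle whether the number marks pairs, and it entered only as a block in an alternative. The members and lists were chosen with earlier results of these data known. Named genes are all members, up to 6 called genes and the brightest of each list (Cnn1 is named outside this rule), the 5 genes most like Ankrd1, Aqp11, the injury genes and the cell type markers. Alternatives on array brightness were added after seeing the data.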

Additional observations from a re-analysis of the deposited data

Results flagged for a closer look

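In 4 of 39 groups of arrays, each a probe set of the 8 genes in KO or in WT kidneys, the end value stood apart by Dixon's criterion, which chance meets in about 1 of 20 groups. For Ctgf (1416953_at) KO kidney 1-2 was highest, at 11.48 against 10.67 for the next, a gap of 0.64 of the group's range. For Lats2 (1419678_at) KO kidney 2-4 was highest, at 7.61 against 7.36, a gap of 0.532 of the range. For Ankrd1 (1420991_at) WT kidney 5-1 was lowest, at the floor of 2.78 against 3.95, a gap of 0.633 of the range. For Lats2 (1437101_at) WT kidney 4-2 was highest, at 7.73 against 7.35, a gap of 0.581 of the range.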

How the results depend on the processing

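Over 32 alternatives, the 20 probe sets of the 8 genes gave 640 differences, of which 624 moved by less than 1 SD and 16 by more, and no called difference changed sign. As a description, Amotl2 was called lower in 6 of 32 and Axl (1423586_at) higher in 29. Ctgf was called in all 32, and Lats2, Yap1 and Tead1 in none. Where tested, Cyr61 was called in 31 of 32 (1416039_x_at), 28 of 31 (1438133_a_at), 29 of 30 (1442340_x_at) and 26 of 30 (1457823_at). Ankrd1 was tested in 28 (1420991_at) and 27 (1420992_at) and called in each. Of 639 calls of other pathway genes, 562 held, 77 were lost and none changed sign; Cnn1 was lost in 21 of 32. All probe sets called numbered 573 with the deposited scaling (65.4% of them higher, against 53.2% as reported), 1737 in males alone, 704 in females alone, 1629 in brighter and 1354 in dimmer arrays alone, and 2563 to 3192 with 1 array left out. Other YAP targets called higher were 2 with the deposited scaling and in males alone and 4 with any array left out. Those called lower were 0 with the deposited scaling, in females alone and in brighter arrays alone, 2 without WT kidney 1-1, and 1 to 2 over all arrays left out. SRF targets called higher were 1 with the deposited scaling and in females alone, 4 with median centring, 3 in brighter and 3 in dimmer arrays alone, and 5 to 8 with 1 array left out. With the first sample number as a replicate block, 3916 probe sets were called and YAP targets called lower were 2, and the higher counts of both lists stayed within 1.5 times. With the deposited scaling 14 relations of Ankrd1 in KO kidneys passed, and r turned positive for Yap1 (0.883), Tead1 (0.774), Havcr1 (0.647) and Timp1 (0.756). The cause was not tested. Arrays in number, and dim signal for Ankrd1 in WT kidneys, limit the precision.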
